A study of Mus musculus with 6 samples.

Results

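The genes described here copy DNA and supply its building blocks: 37 genes chosen by name, from the origin loading factors and the MCM helicase to the polymerases, the enzymes that make deoxynucleotides and the regulators of entry into S phase. Of these, 36 had a probe set annotated to that symbol alone and 35 lay above the filter on dim signals, out of 12859 genes tested in the series. The tissue was calvaria, the vault of the skull, from mice 10 days old (P10). The 13del-tg animals carried a Col10a1-13del transgene, a form of the collagen X gene with a deletion, and are labelled as having bone overgrowth, and the controls were wild-type littermates. The labels list 3 biological replicates per genotype, each on 1 Affymetrix array of RNA from cryosectioned parietal bones, and they name neither the strain, the promoter of the transgene nor how many animals went into an array.

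The values deposited as control 1 and 13del-tg 1 were identical at all 45101 probe sets. This array, called the shared array below, is shown apart and enters no comparison, so 13del-tg 2 and 3 were set against controls 2 and 3. Col10a1 had a signal of 15688.7 and 11584.4 on 13del-tg 2 and 3, against 149.8 and 158.2 on controls 2 and 3, and 152.2 on the shared array, against that array's 13del-tg label. The bone collagen gene Col1a1 had signals from 29585.4 to 48235.9 over the 5 distinct arrays and the bone sialoprotein gene Ibsp from 8649 to 13808.5, so these defining markers of bone were present on each. Signals are MAS5 intensities on a linear scale, and differences below are 13del-tg minus control on the log2(signal + 16) scale, with the standard error (SE) of a limma fit over all genes and n = 2 arrays per genotype. An exact permutation test of 2 arrays against 2 cannot give a two-sided p below 0.333.

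Before a cell divides, the origin recognition complex, CDC6 and CDT1 load the ring of MCM2 to MCM7 onto DNA in G1. CDC45, the GINS proteins and MCM10 then turn it into a running helicase, and polymerases, a sliding clamp and nucleotide enzymes do the copying. Most of these genes are transcribed as cells enter S phase, largely under E2F transcription factors, so their mRNA is a common marker of dividing cells. Skull bone at this age holds dividing osteoprogenitors and, in its marrow, dividing blood cell precursors.

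Promoter sequences of 6 of these genes are printed because E2F sites are the best known shared element of the group. The motifs searched were TTCCCGC and TTGGCGC, on both strands, in the 250 bases before each start in the RefSeq table (build GRCm38.p6), and 31 of the 37 genes had an entry there, all but Ccne2, Gins1, Gins2, Mcm4, Pole and Prim2. A motif was found in 12 of the 36 windows of these genes (33.3%, 11 genes) and in 5.62% of the 32851 windows of all genes. The CCAAT box, searched as CCAAT on both strands and able to overlap the second motif on the other strand, was in 55.6% of the windows of these genes and in 33.8% of all windows. Of the genes given with all their array values that held a motif, the 6 with the smallest unadjusted p are shown, in that order, and capitals mark the motif. Prim1 also held 1 and is not printed. Each is the gene's own strand, 5′ to 3′, ending at the base before the start.
Uhrf1 (chr17:56303087-56303336, + strand): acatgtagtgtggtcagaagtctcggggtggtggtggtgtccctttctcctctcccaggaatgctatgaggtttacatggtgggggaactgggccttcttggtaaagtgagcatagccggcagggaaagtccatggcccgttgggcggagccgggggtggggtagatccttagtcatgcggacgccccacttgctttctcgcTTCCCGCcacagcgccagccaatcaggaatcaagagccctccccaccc
Mcm7 (chr5:138171884-138172133, - strand): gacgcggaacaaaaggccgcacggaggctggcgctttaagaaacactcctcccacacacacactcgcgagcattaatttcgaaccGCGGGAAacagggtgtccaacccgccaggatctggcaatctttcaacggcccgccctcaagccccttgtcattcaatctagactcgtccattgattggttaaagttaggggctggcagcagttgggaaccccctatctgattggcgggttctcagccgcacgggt
Rrm1 (chr7:102441445-102441694, + strand): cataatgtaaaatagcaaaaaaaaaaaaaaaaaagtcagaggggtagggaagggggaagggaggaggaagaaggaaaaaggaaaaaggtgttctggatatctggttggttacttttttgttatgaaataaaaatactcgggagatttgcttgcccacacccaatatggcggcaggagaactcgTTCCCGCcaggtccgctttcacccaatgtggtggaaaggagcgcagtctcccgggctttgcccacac
Cdc6 (chr11:98907901-98908150, + strand): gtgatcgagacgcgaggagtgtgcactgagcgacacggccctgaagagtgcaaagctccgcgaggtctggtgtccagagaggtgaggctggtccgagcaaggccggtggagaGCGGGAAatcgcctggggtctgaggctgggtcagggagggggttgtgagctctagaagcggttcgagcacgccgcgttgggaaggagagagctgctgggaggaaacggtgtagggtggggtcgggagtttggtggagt
Mcm6 (chr1:128359706-128359955, - strand): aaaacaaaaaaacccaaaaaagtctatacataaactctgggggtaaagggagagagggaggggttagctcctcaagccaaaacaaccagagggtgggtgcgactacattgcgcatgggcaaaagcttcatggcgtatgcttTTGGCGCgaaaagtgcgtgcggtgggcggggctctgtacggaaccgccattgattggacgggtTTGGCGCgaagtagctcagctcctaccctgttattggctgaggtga
Chaf1b (chr16:93883651-93883900, + strand): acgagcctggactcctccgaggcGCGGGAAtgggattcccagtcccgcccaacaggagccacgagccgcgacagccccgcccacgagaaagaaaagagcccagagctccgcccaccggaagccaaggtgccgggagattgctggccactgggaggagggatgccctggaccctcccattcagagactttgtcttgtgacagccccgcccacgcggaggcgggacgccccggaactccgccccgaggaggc
In the printed sequences Mcm6 held 2 motifs, beginning 109 and 46 bases before the start, and the others 1 each. Mcm7 and Uhrf1 each had 2 windows, of which the more upstream is printed. The Mcm7 window not printed also held 1 motif, and that of Uhrf1 held 0. The median difference between genotypes was -0.63 over the 10 tested genes with a motif and -0.63 over the 19 with an entry and no motif. Only these exact sequences before the start were searched, so the split does not sort genes by E2F control, which was not tested.

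As a group these genes had lower signals in 13del-tg, without a gene that passed the test. The log2 difference was negative for 31 of the 35 genes tested and its median was -0.54, against -0.074 over all genes, of which 58.8% were negative. For 24 of the 35, both 13del-tg signals were under both control signals, where this held for 26.3% of all genes, and for 2 they were above both, where 13.4% were. No member passed the limma test after Benjamini-Hochberg adjustment over all genes at 0.05, with 0 lower and 0 higher, where 0.0467% of all genes were lower and 0.0156% higher (0.0622% together). The lowest adjusted p among them was 0.426, that of Rrm2. At an unadjusted p under 0.05 there were 13 lower and 0 higher, where 5.31% and 1.49% of all genes were. A difference of at least 1.5-fold downward was found for 17 of the 35, against 9.23% of all genes. In bone taken whole, fewer dividing cells and less of each mRNA per cell cannot be told apart.

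**Figure D1:**
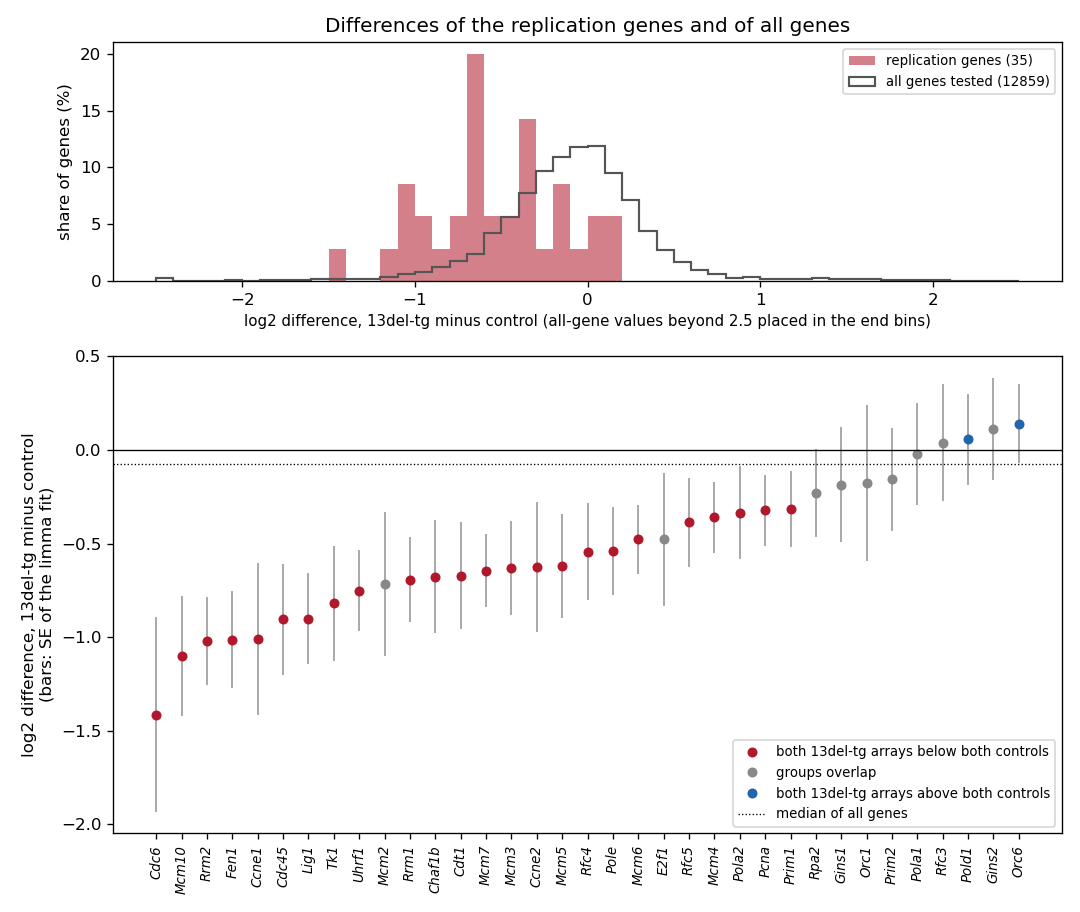
Top, the share of genes (%) in each bin of the log2 difference, 13del-tg minus control, for the 35 replication genes (filled) and for all 12859 genes tested (outline). Bottom, the difference of each replication gene with its SE from the limma fit (n = 2 arrays per genotype). The replication genes run from -1.41 (Cdc6) to 0.14 (Orc6), and 31 of 35 lie below 0.

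Both 13del-tg arrays had low values, 13del-tg 2 more so. Against the mean of the controls, the median over the 35 genes was -0.77 on 13del-tg 2 and -0.38 on 13del-tg 3, against -0.052 on control 2 and 0.052 on control 3. On the shared array it was -0.42, between 13del-tg 2 and 3. 13del-tg 2 lay below both controls for 31 genes and 13del-tg 3 for 24, where 41.1% and 44.9% of all genes did. 13del-tg 2 was the lower of the 13del-tg arrays for 29 of the 35, where 46.8% of all genes were. Without 13del-tg 2 the median difference of the 35 genes was -0.38 and that of all genes -0.095. Without 13del-tg 3 these medians were -0.77 and -0.053, and without control 3 they were -0.48 and -0.063. Centring every array on its own median raised the median difference of all genes by 0.12, to 0.044, and gave a median of -0.43 over these genes. Relative to the median of all genes they had -0.47 with and without centring.

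**Figure D2:**
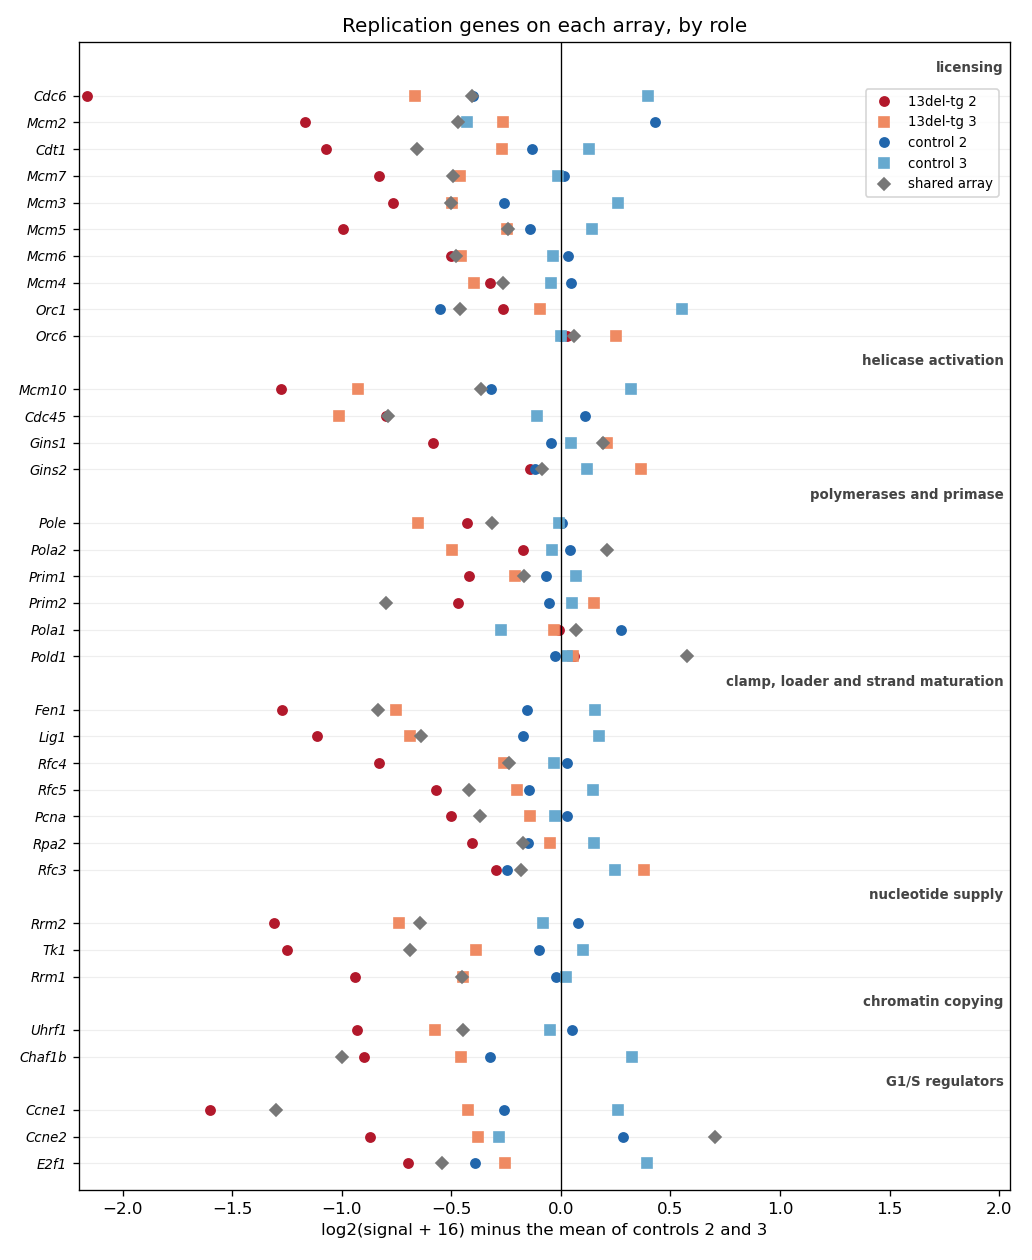
Each row is a gene, grouped by role, and each point is 1 array: its log2(signal + 16) minus the mean of controls 2 and 3. The 13del-tg 2 points (dark red) are the lowest of the 4 arrays compared for 27 of 35 genes. The shared array (grey) lies between the groups for 11 and within the range of the controls for 4. For 15 others it lies within the range of the 13del-tg arrays.

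The enzymes that make deoxynucleotides gave the lowest median of the roles, -0.82 over 3 tested genes. All 3 had both 13del-tg arrays below both controls, where 26.3% of all genes did. Rrm2, the regulatory subunit of ribonucleotide reductase, which limits deoxynucleotide supply in S phase, had signals of 1945.4 and 2898.7 in 13del-tg and of 5120.3 and 4579.5 in control. The groups lay well apart, with the shared array between them at 3099.2, and the difference was -1.02 (SE 0.23), 49.2% of the control level (limma unadjusted p = 0.00331, adjusted p = 0.426). Its other 2 probe sets gave -1.23 and -1.07. Rrm1, the catalytic subunit, had 1168.2 and 1646.7 in 13del-tg and 2216.9 and 2290 in control. Its controls nearly coincided and the 13del-tg arrays were both below them, a difference of -0.69 (SE 0.23, adjusted p = 0.697), with the shared array at 1644.6. A second probe set gave -0.68, with wider spreads: 1432 and 891.1 in 13del-tg against 1567.5 and 2117.7 in control. Tk1, the thymidine salvage kinase, had 555.9 and 1022.3 in 13del-tg against 1253.7 and 1440 in control, and 827.2 on the shared array. Here the 13del-tg arrays differed more from each other than the controls did, and the difference was -0.82 (SE 0.31, adjusted p = 0.715). Tyms, the thymidylate synthase gene, was not above the filter: its 4 probe sets had signals from 2.7 to 86.2, and a further probe set annotated to both Tyms and its pseudogene was not used.

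Among the licensing factors, which place the helicase on origins, 9 of 10 genes were negative, with a median of -0.63. Both 13del-tg arrays were below both controls for 7 of the 10. Of all genes, 58.8% were negative and 26.3% had both 13del-tg arrays below both controls. Cdc6, the loader of the ring, had the largest difference of all 35 genes. Its signals were 92.2 and 289 in 13del-tg, against 351.2 and 622.2 in control, with 349 on the shared array. The spread within each genotype was wide and the groups did not overlap, at -1.41 (SE 0.52, adjusted p = 0.715). Cdt1, which brings the ring to the origin, had -0.67 (SE 0.29), from 1440.6 and 2522.8 in 13del-tg against 2783.2 and 3333.5 in control.

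The subunits of the ring had differences within a narrow range, from -0.72 (Mcm2) to -0.36 (Mcm4). Mcm7 had signals of 3510.9 and 4541.2 in 13del-tg, against 6320.4 and 6191.2 in control, and 4437.6 on the shared array. The controls nearly coincided above both 13del-tg arrays, and the difference of -0.65 (SE 0.20, adjusted p = 0.641) had the smallest unadjusted p of the ring, 0.0131, while its other 3 probe sets gave -0.54 to -0.78. Mcm6 had 1558.4 and 1609.4 in 13del-tg against 2265.8 and 2160.4 in control, with 1583.4 on the shared array. Replicates of each genotype were close and the groups apart, a difference of -0.48 (SE 0.18, adjusted p = 0.715). A second probe set gave a smaller difference, -0.22, with 583.9 and 709 in 13del-tg against 750.2 and 757.9 in control. Mcm3 had 732 and 885.6 in 13del-tg against 1047.9 and 1507.4 in control, and 883.7 on the shared array. Its 5 probe sets were all negative, the brightest at -0.63 (SE 0.25, adjusted p = 0.715). Mcm5 (-0.62, SE 0.28) and Mcm4 (-0.36, SE 0.19) also had groups that did not overlap. On the brightest probe sets, Mcm2 was the 1 subunit whose groups overlapped: 13del-tg 3, at 1293.3, lay above control 3, at 1151.9, while 13del-tg 2 had 685.1, control 2 had 2104.1 and the shared array 1122.2, for a difference of -0.72 (SE 0.38, adjusted p = 0.717). Its second probe set had 545.4 and 579.3 in 13del-tg against 814.2 and 932.6 in control, a difference of -0.62 without overlap.

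The origin recognition subunits had small differences. Orc6 had 800.4 and 937.2 in 13del-tg against 784.1 and 785.5 in control, 0.14 (SE 0.21). Orc1, whose level cycles and peaks in G1, had 153 and 173.9 in 13del-tg between controls of 122.4 and 280.9, -0.18 (SE 0.42), and a second, dimmer probe set gave -0.89. Without control 3 the Orc1 difference was 0.37, so its sign rested on that array.

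Of the 4 factors that activate the helicase, Mcm10 and Cdc45 were lower on both 13del-tg arrays and the GINS genes were not. Mcm10, which releases the helicase from the double-stranded origin, had 160.2 and 208.4 in 13del-tg against 325.8 and 516.9 in control, with 315.6 on the shared array. Both 13del-tg values were well under the lower control, and the difference was -1.10 (SE 0.32, adjusted p = 0.628). Cdc45, the helicase cofactor, had 142.2 and 120.6 in 13del-tg against 281.1 and 239.1 in control, and 143.6 on the shared array. Both of its probe sets gave -0.91 (SE 0.30 for the brighter, adjusted p = 0.697). Gins1 had 364.8 and 644.5 in 13del-tg, on either side of controls at 536.7 and 572.9, and 636.4 on the shared array, with a difference of -0.19 (SE 0.31, adjusted p = 0.883). Gins2 had 0.11 (SE 0.27) with a second probe set at -0.27. Neither GINS gene had a direction that held: without 13del-tg 2 Gins1 was 0.21, and Gins2 was -0.081 as the mean of its probe sets.

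**Figure D3:**
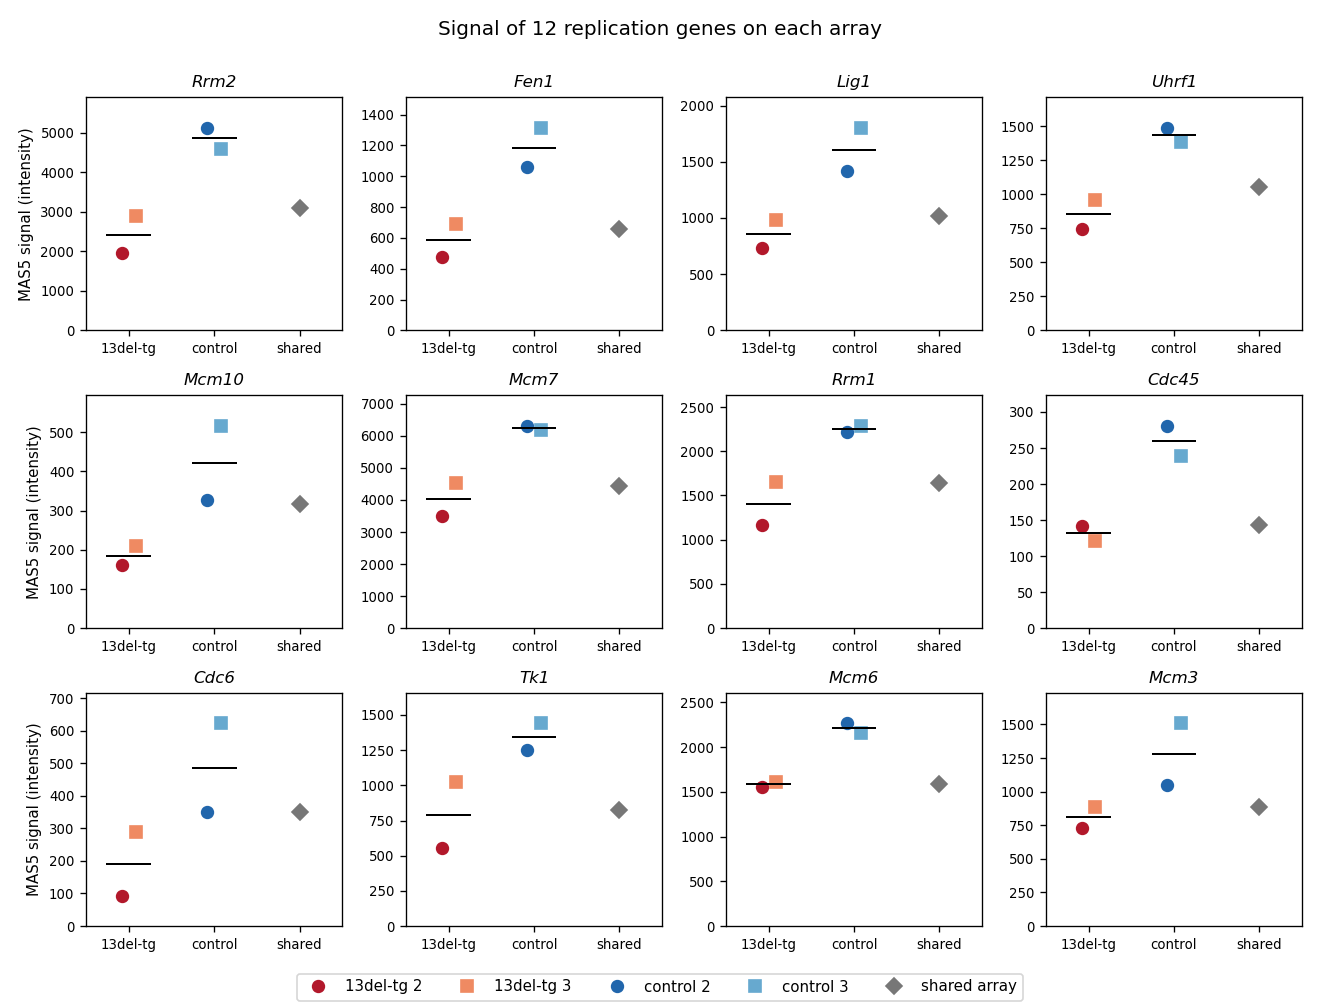
MAS5 signal (linear axis from 0) of the 12 replication genes with the smallest unadjusted p, with 1 point per array and a line at the mean of each genotype (n = 2). In each panel both 13del-tg points lie below both control points; the shared array stands apart at the right.

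The replicative polymerases and primase had the median nearest to 0 of the roles, -0.24 over 6 genes with none at an unadjusted p under 0.05. Pole, the catalytic subunit of the leading strand polymerase, had 379.7 and 323.1 in 13del-tg against 518.8 and 514.1 in control, with 411.7 on the shared array. The groups lay apart by more than either spread, at -0.54 (SE 0.24, adjusted p = 0.715). Prim1, the catalytic primase subunit, had 1007.1 and 1166.6 in 13del-tg against 1287.4 and 1418.9 in control, and 1200 on the shared array. Its difference was -0.31 (SE 0.20, adjusted p = 0.731), with a second probe set at -0.21. On that probe set the groups overlapped, with 444.8 and 1065.7 in 13del-tg against 821.8 and 785.3 in control. Pola2, the accessory subunit of polymerase alpha, had 419.6 and 332 in 13del-tg against 489.3 and 460.9 in control, and 552.2 on the shared array, above all 4. The difference was -0.33 (SE 0.25, adjusted p = 0.746). For Prim2 (-0.16, SE 0.27), Pola1 (-0.020, SE 0.27) and Pold1 (0.058, SE 0.24) the differences were smaller than their errors, and Pola1 had the opposite sign, 0.098, with centred arrays and 0.10 with quantile normalization. The 2 kept probe sets of Pold1 disagreed, at 0.058 and -0.39, and so did those of Prim2, at -0.16 and 0.15.

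Genes of the clamp, its loader and the joining of lagging-strand fragments had a median of -0.39 over 7, with 6 negative. For 5 of the 7 both 13del-tg arrays were below both controls, against 26.3% of all genes. Fen1, the flap nuclease that trims these fragments, had 478.1 and 692.6 in 13del-tg against 1057.4 and 1314.4 in control, with 654.6 on the shared array. The 13del-tg mean was 585 ± 152 and the control mean 1186 ± 182 (SD, n = 2 each), a difference of -1.01 (SE 0.26, unadjusted p = 0.0058, adjusted p = 0.532). Its second probe set gave -0.80. Lig1, the ligase that seals them, had 729.5 and 984.4 in 13del-tg against 1413.9 and 1803.2 in control, with 1021.1 on the shared array. Here too the gap was wider than the spread within a genotype, at -0.90 (SE 0.24, adjusted p = 0.566). Pcna, the clamp itself and the brightest of these probe sets, had 9436.6 and 12110.5 in 13del-tg against 13626.1 and 13116.5 in control, and 10356.6 on the shared array. Both 13del-tg arrays were below both controls, by a modest -0.32 (SE 0.19, adjusted p = 0.72).

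The differences of the clamp loader subunits ran from -0.54 to 0.040 and were not tested against each other. Rfc4 had 473.6 and 710.1 in 13del-tg against 871.3 and 835.4 in control, with 722.7 on the shared array, a difference of -0.54 (SE 0.26, adjusted p = 0.715). A second probe set of Rfc4 gave -0.40 with overlapping groups, 406.4 and 512 in 13del-tg against 754.6 and 490.8 in control. Rfc5 had -0.39 (SE 0.24) with groups that did not overlap. Rfc3 had 0.040 (SE 0.31) and overlapping groups, with a second probe set at -0.21. Rpa2, a subunit of the single-strand binding protein, had -0.23 (SE 0.24) with overlapping groups, and its second probe set gave -0.41.

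Chromatin is copied along with the DNA, and both genes of that role that were tested were lower on both 13del-tg arrays. Uhrf1, which reads half-methylated DNA behind the fork and recruits the maintenance methyltransferase, had 746.9 and 961.5 in 13del-tg against 1490.6 and 1387.2 in control, with 1051.2 on the shared array. The difference was -0.75 (SE 0.22, adjusted p = 0.628) and -0.84 for a second probe set. Chaf1b, a subunit of the histone chaperone CAF-1, had 365.4 and 501.5 in 13del-tg against 550.9 and 874 in control. The shared array, at 339.8, lay below all 4, and the difference was -0.68 (SE 0.30, adjusted p = 0.715). Chaf1a, its partner subunit, was not analysed here.

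The regulators of the G1/S step had 3 of 3 negative and a median of -0.62, with wide spreads. Ccne1, the cyclin E1 gene, had 254.4 and 594.8 in 13del-tg against 668 and 966.3 in control, with 316.6 on the shared array. The 13del-tg arrays differed by more than the gap between 13del-tg 3 and control 2, and the difference was -1.01 (SE 0.41, adjusted p = 0.715), with a second probe set at -0.52. Ccne2, the cyclin E2 gene, had 125.8 and 183.7 in 13del-tg against 299.5 and 197.3 in control, and 407 on the shared array. The gap between 13del-tg 3 and control 3 was small, and the difference was -0.62 (SE 0.35, adjusted p = 0.717). E2f1, the transcription factor that drives many of these genes, had 179.7 and 250.4 in 13del-tg against 225.9 and 401.2 in control, and 201.9 on the shared array. Its groups overlapped, at -0.48 (SE 0.36, adjusted p = 0.749), and a second probe set gave -0.21, also with overlap.

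A gene's other probe sets, which the choice of the brightest had left out, were read next. Of the 23 genes with several probe sets above the filter, 19 had all of them of one sign. The 30 probe sets other than the brightest had a median of -0.62, 29 were negative and 23 had both 13del-tg arrays below both controls. Of all genes, on their brightest probe sets, 58.8% were negative and 26.3% had both 13del-tg arrays below both controls. They come from the same RNA, so they repeat the reading and not the animals.

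**Figure D4:**
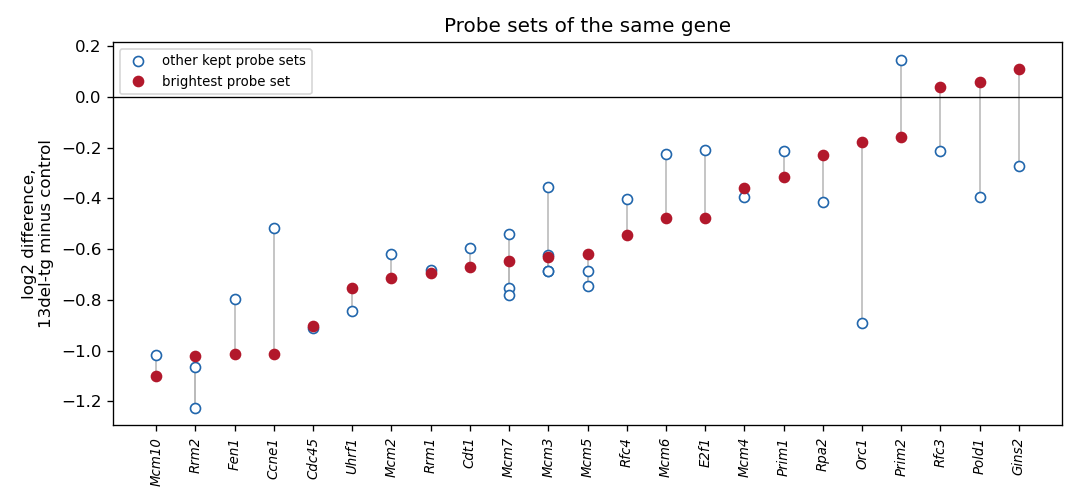
Log2 difference, 13del-tg minus control, of every kept probe set of the 23 replication genes with more than 1, the brightest filled and the others open. Signs differ within Gins2, Pold1, Prim2 and Rfc3.

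The rest of the pathway was read from lists made by name, and whether it differs from the 35 genes was not tested. Of 35 other replication genes 30 were negative, with a median of -0.30. At an unadjusted p under 0.05, 4 were lower and 0 higher, where 5.31% and 1.49% of all genes were. For 17 of the 35 both 13del-tg arrays were below both controls, against 26.3% of all genes. Clspn, the fork checkpoint mediator claspin, had -0.88 (SE 0.26), Asf1b, a histone chaperone, -0.87 (SE 0.26), and Dnmt1, the maintenance methyltransferase, -0.58 (SE 0.19), and no gene of the list passed over all genes by limma. The wider nucleotide list, mostly enzymes of purine and pyrimidine synthesis that also serve cells at rest, had a median of -0.063, close to that of all genes (0.055 with centred arrays and 0.046 with quantile normalization), with 13 negative and 12 positive. Its 1 gene at an unadjusted p under 0.05 was Rrm2b, the p53-induced small subunit of ribonucleotide reductase, at -0.87 (SE 0.32). At that threshold 5.31% of all genes were lower. Rrm2b had 408.7 and 230.5 in 13del-tg, 637.7 and 518.4 in control and 821.2 on the shared array.

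Among the E2F, RB and CDK inhibitor genes, 19 of 26 were negative, with a median of -0.19. E2f8, an E2F repressor that is itself expressed in S phase, had 187.8 and 338.6 in 13del-tg against 932.9 and 708.2 in control, and 539.1 on the shared array. Its difference, -1.62 (SE 0.33, adjusted p = 0.345), was larger than that of any of the 35 members. Cdkn2b, which encodes the CDK4 and CDK6 inhibitor p15, had a positive difference, with 400.1 and 585.8 in 13del-tg against 155.3 and 252.7 in control, 1.22 (SE 0.33, adjusted p = 0.573), and 131.8 on the shared array. The other CDK inhibitor genes tested, Cdkn1a, Cdkn1b, Cdkn1c, Cdkn2c and Cdkn2d, had groups that overlapped.

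Genes of mitosis, the later step of the same cycle, were all 19 negative, with a median of -0.78. At an unadjusted p under 0.05 there were 14, where 5.31% of all genes were lower, and none passed the adjusted threshold. The proliferation antigen gene Mki67 had 2181.5 and 2867.1 in 13del-tg against 5636.7 and 4760.9 in control, -1.05 (SE 0.21, adjusted p = 0.345), and 4120.7 on the shared array. On the shared array the mitosis median was -0.27 against the mean of the controls, compared with -0.42 for the replication genes. Whether the replication and mitosis lists differ was not tested.

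Markers of other cells that skull bone and its marrow hold are given beside these values. Of 11 erythroid genes tested, 10 were negative with a median of -2.11, and their summed signal was 9453.5 to 11048.3 in 13del-tg and 26330.5 to 26443.4 in control. The erythroid median was -2.86 on 13del-tg 2 and -1.36 on 13del-tg 3 against the mean of the controls, the same order as the replication genes, and -0.67 on the shared array. All 9 B cell genes were negative with a median of -1.55, and their summed signal was 2857.4 to 5767.9 in 13del-tg and 9576.8 to 10216.7 in control. Of 14 neutrophil and monocyte genes 13 were negative, with a median difference of -0.55. Against the mean of the controls their median was -1.50 on 13del-tg 2 and 0.17 on 13del-tg 3, with sums of 38238.4 to 81445.4 in 13del-tg and 67658.7 to 86400.4 in control. No marker of these lists was at 0 on any array, the lowest being Epb42 at 15.3.

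Of 8 genes tested from the progenitor and T cell list 7 were negative, with a median of -0.46. These were Kit, Cd34, Flt3, Myb, Spi1, Gata2, Itga2b and Pf4. No T cell gene was tested, since Cd3e and Cd3g were under the filter and Lck had no probe set of its symbol alone. At an unadjusted p under 0.05, 2 were lower, where 5.31% of all genes were. Myb, the transcription factor of immature blood cells, had 295.9 and 645.4 in 13del-tg against 1272.3 and 1772.9 in control, -1.74 (SE 0.38, adjusted p = 0.387), and Gata2, a transcription factor of early progenitors, had -0.65 (SE 0.26). Cd34, a surface protein of progenitors and of vessels, had 3261.4 and 2892.8 in 13del-tg, both above the 2333.3 and 2339.4 in control, 0.39 (SE 0.18, adjusted p = 0.715).

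The lists of bone and cartilage cells differed in sign. All 9 osteoclast genes were negative, with a median of -0.38, and 6 had both 13del-tg arrays below both controls, against 26.3% of all genes. Their sums were 65069.3 to 83033.1 in 13del-tg and 85073.9 to 96338.5 in control. Of 11 chondrocyte genes 9 were negative, with a median of -0.77, and 2 had both 13del-tg arrays below both controls, against 26.3% of all genes. Their sums were 30093.3 to 30767.6 in 13del-tg and 32433.6 to 48426.9 in control. Their medians against the mean of the controls overlapped between genotypes. These were -0.17 on 13del-tg 2, -1.05 on 13del-tg 3, 0.62 on control 2 and -0.62 on control 3. Of 11 osteoblast genes 8 were positive, with a median of 0.12 (-0.026 with quantile normalization and -0.077 with the shared array as 13del-tg) and sums of 187840 to 210809 in 13del-tg and 171573 to 187226 in control. On the shared array the osteoblast median was -0.54, below all 4 other arrays. Muscle genes varied most between arrays, with a median of -1.31 on control 3 and at least 1.18 on the other 4. Of 5 neural and glial genes 3 were negative, with a median of -0.043 (0.074 with centred arrays and 0.14 with quantile normalization), and Snap25, which encodes a synaptic protein, passed the limma test over all genes. It had 18.5 and 33.4 in 13del-tg against 462.1 and 733 in control, -3.86 (SE 0.38, adjusted p = 0.0402), and 24.2 on the shared array. Its 13del-tg signals were under the filter level of 61.9. No gene was lower past the threshold without a filter, without the trend or with the shared array as control only, so Snap25 did not pass there. Of 5 endothelial genes 4 were negative, with a median of -0.21 (0.12 without 13del-tg 3). The part of the blood cell and osteoclast markers in the values of the replication genes was not tested.

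**Figure D5:**
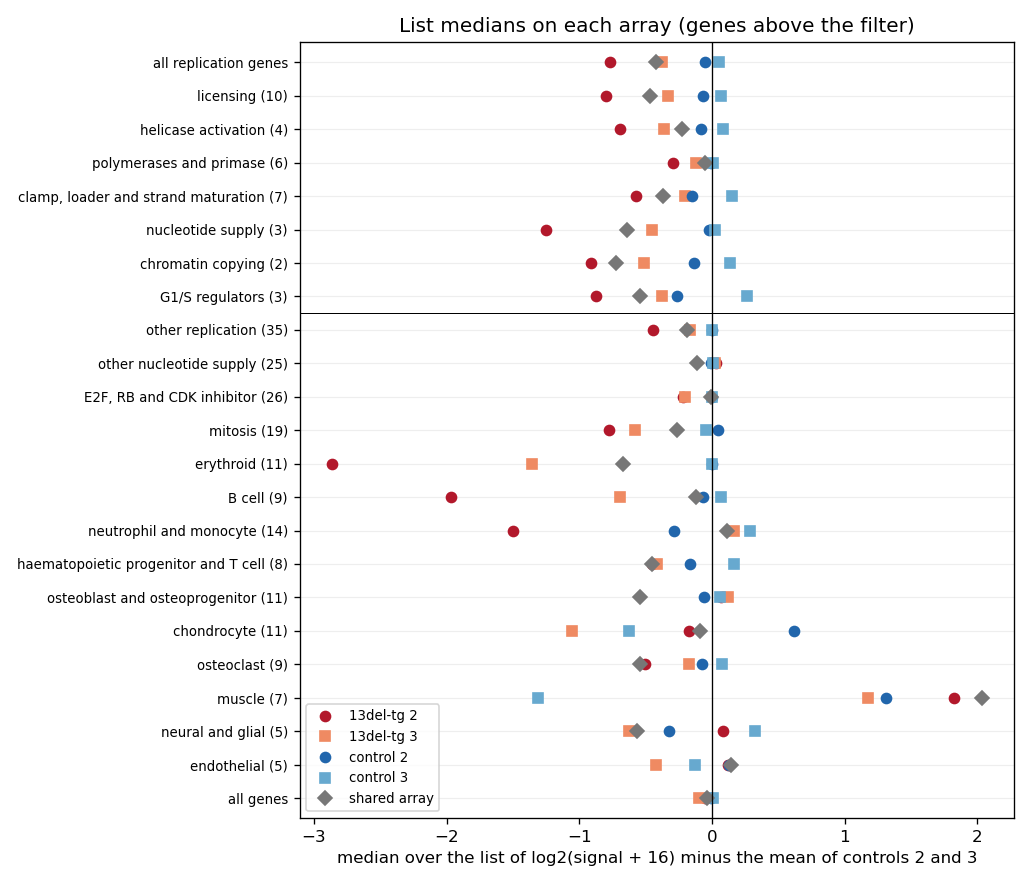
Median over each list of log2(signal + 16) minus the mean of controls 2 and 3, with 1 point per array, for the replication genes, their roles (above the line) and the other lists (below it), with the number of genes in parentheses. 13del-tg 2 is lower than 13del-tg 3 for all 35 replication genes together and for the erythroid, B cell and neutrophil lists. The same order holds for the mitosis, other replication and osteoclast lists, and by small margins for the progenitor, E2F and osteoblast lists. It is reversed for the other nucleotide, chondrocyte, muscle, neural and endothelial lists. The osteoblast list lies near 0 on the 4 arrays compared.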

How the data were processed

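The authors deposited 1 intensity per probe set and sample, not in log form, made with MAS5 per the submitters' processing notes, whose version is not given in the sources used here. Leaving out 2% at each end, their mean was 500.003 on every array, so arrays had been scaled to one level before deposit. From them log2(signal + 16) was taken and not normalized again. Without the 64 control probe sets, those below the 40th percentile of the mean over the 5 distinct arrays (a signal of 61.9) were removed, and each gene was read from its brightest probe set with exactly 1 symbol in the platform annotation.

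All 12859 genes were fitted together in limma 3.58.1 (R 4.3.3), eBayes with trend, two-sided, adjusted over all of them by Benjamini-Hochberg, on 2 residual and 5.01 prior degrees of freedom. In 20 simulated sets of this comparison with 200 of 12859 genes changed, 5.45% of changes of 1 on the log2 scale, 64.5% of those of 2 and 94.4% of those of 4 were recovered. Low MAS5 signals are noisy on a log scale, folds of dim genes are understated, and 2 arrays per genotype limit the precision.

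The members, the lists, the tests and the alternatives were chosen with earlier results of these data known, and lists are described by counts and medians without a test. All values are given for the 4 licensing genes and the 3 genes of each other role with the smallest unadjusted p, for Pcna, Mcm2 and E2f1, and other lists are given by counts with up to 3 of their genes. Promoters were printed for at most 6 genes. Other members are given by difference, and the array values of Cdt1, Orc1 and Orc6 were added after their values had been seen. Hba-a1, named in that rule, had no probe set above the filter. The arrays are labelled as biological replicates.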

Additional observations from a re-analysis of the deposited data

Results flagged for a closer look

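On the shared array, which no comparison used, 5 of the 35 replication genes had a signal above both controls. Orc6 had 817.6 there, against 784.1 and 785.5 in controls 2 and 3. Gins1 had 636.4, against 536.7 and 572.9. Pola2 had 552.2, against 489.3 and 460.9. Pold1 had 487.9, against 316.3 and 328.7, and its 4 other arrays lay within 316.3 to 337.2. Its second probe set did not show this, at 266.3 on the shared array, below 339.8 and 399.9 in the controls. Ccne2 had 407, against 299.5 and 197.3.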

How the results depend on the processing

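Over 17 alternatives the median of the replication genes stayed negative, between -0.77 and -0.36, and leaving out 1 array gave -0.77 to -0.38. No replication gene passed the adjusted threshold in 16 of them. In the 17th, with replicate block, 12 passed, all lower, and 338 genes of all were lower and 271 higher, in a fit with 1 residual degree of freedom in which limma set the variance of each gene to that of the trend (infinite prior degrees of freedom). The numbers share only a label: 13del-tg 2 minus 3 correlated with control 2 minus 3 over genes at r = 0.273, and 2 pairs cannot show a pairing. The 13 replication genes at an unadjusted p under 0.05 (5.31% of all genes were lower) became 7 with centred arrays (3.17%), 6 with the shared array as control only (5.04%), 5 with it under both labels (1.36%) and 4 to 15 with 1 array left out (2.64% to 5.47%). The 24 genes with 13del-tg below control (26.3% of all genes) became 13 with the shared array as control only (16%) and 24 to 31 with 1 array left out, where fewer arrays overlap less often (38.7% to 44.9%). The 8 genes of all past the threshold (2 higher, 6 lower) became 2 with a pseudocount of 1, with the 60th percentile filter and with quantile normalization (1 higher, 1 lower each), 3 with a pseudocount of 64, 1 without a filter, without the trend or with the shared array as control only, 25 with robust eBayes, 609 with replicate block, 0 with the shared array under both labels and 1 to 232 with 1 array left out. At an unadjusted p under 0.05, all genes split into 191 higher and 683 lower, 229 and 519 with quantile normalization, and 353 and 407 with centred arrays. Signs turned for small differences. Pola1 was 0.10 with quantile normalization, 0.098 with centred arrays, 0.010 with the shared array added to 13del-tg and -0.29 to 0.25 with 1 array left out. Gins2 was -0.081 as the mean of probe sets, -0.0082 without control 2, -0.14 without 13del-tg 3 and up to 0.36 without 13del-tg 2. Pold1 was -0.17 as the mean of probe sets and -0.13 with the shared array as control. Rfc3 was -0.087 as the mean of probe sets, -0.034 with the shared array added to 13del-tg, -0.21 without control 2 and -0.30 to 0.38 with 1 array left out. Prim2 was 0.11 with the shared array as control and -0.47 to 0.15, Gins1 -0.58 to 0.21 and Orc1 -0.73 to 0.37 with 1 array left out. Of 238 medians of the other lists under alternatives, 14 had the opposite sign, in 5 lists, and none of these was an erythroid, B cell or mitosis median. The causes were not tested.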
